A study of Mus musculus with 25 samples.

Results

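Autonomic ganglion neuron genes were followed across 5 embryonic mouse tissues. The 40 genes were chosen by name for the specification of autonomic neurons, their transmitters, and their axons and synapses. The choice was made with earlier results of these data known. All 40 were found among the 35880 genes of the count table by their Ensembl identifiers. They comprised 6 transcription factors, 13 pan-neuronal genes, 6 synapse and secretory granule genes, 4 noradrenergic genes, 3 cholinergic genes, 5 genes for peptides or nitric oxide, and 3 receptors.

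The study compared mesenchymes, the connective tissues around epithelial glands, in search of signals behind the different growth of mammary and salivary epithelium, and bulk RNA-Seq was done on 25 samples of dissected mesenchyme, 5 per tissue. Mammary mesenchyme (MM) was taken at E13.5 and at E16.5, the precursor of the mammary fat pad (FP) at E16.5, and mesenchyme of ventral skin (VM) and of the submandibular salivary gland (SM) at E13.5. In the figures each name carries its stage. All embryos were untreated C57Bl/6JOlaHsd wild types, female at E16.5 and of unstated sex at E13.5. Each sample was a pool of 2 to 3 embryos of 1 litter, and 3 litters were used per tissue, so some samples of a tissue shared a litter and a p-value measures the spread between pools.

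The neurons of autonomic ganglia arise from the neural crest and are specified by factors such as Phox2a, Hand2, Gata3 and Tlx2. Sympathetic neurons mostly make noradrenaline from tyrosine with Th, Ddc and Dbh and load it into vesicles with Slc18a2. Parasympathetic neurons make acetylcholine with Chat, load it with Slc18a3 and take up choline with Slc5a7, and many also release the peptide Vip or nitric oxide made by Nos1. The parasympathetic submandibular ganglion forms within the mesenchyme of the salivary gland, beside the epithelial duct.

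RefSeq promoter windows were matched to 31 of the 40 members by symbol and run from 250 bases before to 50 bases after the start of transcription on GRCm38.p6. The palindrome TGACGTCA, the binding site of the cAMP response factor CREB, occurred in 6 of the 31 windows and in 1.79% of all 32851 windows. The shorter core TGACG, searched on both strands and contained in every TGACGTCA, occurred in 16 of the 31 and in 20.8% of all windows. The TATA box TATAAA, on either strand, occurred in 7 of the 31 and in 13.6% of all. TAAT and ATTA separated by NNN, a spacing of homeodomain dimers such as Phox2 proteins, were found in 0 of the 31 and in 0.487% of all. A match describes letters in a window and does not show a bound site. The windows below belong to genes of the transmitter classes and of the secretory granule, with different patterns over the tissues, and capitals mark TGACGTCA in Th, Chgb and Slc18a2, TGACG in Vip and its reverse complement in Dbh.
Vip, chr10:5638968-5639267, plus strand: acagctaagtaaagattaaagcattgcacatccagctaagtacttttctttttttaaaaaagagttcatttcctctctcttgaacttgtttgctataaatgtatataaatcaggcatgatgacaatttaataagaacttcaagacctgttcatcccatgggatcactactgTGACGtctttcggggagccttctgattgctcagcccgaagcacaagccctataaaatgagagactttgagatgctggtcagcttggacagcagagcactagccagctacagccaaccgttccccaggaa
Dbh, chr2:27165257-27165556, plus strand: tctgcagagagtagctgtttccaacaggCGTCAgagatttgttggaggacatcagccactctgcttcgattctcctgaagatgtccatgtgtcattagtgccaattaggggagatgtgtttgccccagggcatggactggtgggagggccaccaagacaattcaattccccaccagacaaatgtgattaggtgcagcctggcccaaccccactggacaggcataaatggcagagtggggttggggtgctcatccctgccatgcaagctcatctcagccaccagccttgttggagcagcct
Th, chr7:142899946-142900245, minus strand: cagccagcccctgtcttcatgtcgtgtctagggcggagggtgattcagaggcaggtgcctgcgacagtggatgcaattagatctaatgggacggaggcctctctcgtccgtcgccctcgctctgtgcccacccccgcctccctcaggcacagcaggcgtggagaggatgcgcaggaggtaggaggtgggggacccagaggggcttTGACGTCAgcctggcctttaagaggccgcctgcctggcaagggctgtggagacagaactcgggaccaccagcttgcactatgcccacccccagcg
Chgb, chr2:132781392-132781691, plus strand: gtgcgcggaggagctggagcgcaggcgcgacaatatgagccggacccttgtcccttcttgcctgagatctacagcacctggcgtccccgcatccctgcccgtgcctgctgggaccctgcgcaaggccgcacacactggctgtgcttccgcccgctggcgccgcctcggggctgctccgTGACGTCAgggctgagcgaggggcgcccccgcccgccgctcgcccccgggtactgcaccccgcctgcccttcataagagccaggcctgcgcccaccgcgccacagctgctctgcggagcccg
Slc18a2, chr19:59260628-59260927, plus strand: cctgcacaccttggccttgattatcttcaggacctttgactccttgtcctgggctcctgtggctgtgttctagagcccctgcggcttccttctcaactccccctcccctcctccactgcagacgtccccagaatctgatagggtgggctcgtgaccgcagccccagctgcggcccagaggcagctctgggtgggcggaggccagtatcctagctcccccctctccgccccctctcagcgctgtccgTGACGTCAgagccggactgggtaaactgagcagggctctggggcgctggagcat

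In Th the palindrome began 45 bases before the start, in Chgb 72 bases and in Slc18a2 4 bases before it. The core in Vip began 79 bases before the start and that in Dbh 222 bases before it. These genes differed in where they were expressed: Vip, Dbh, Chgb and Th were highest in SM, whereas Slc18a2 was highest at E16.5.

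Library totals ranged from 20678150 to 34448304 estimated counts, with a median of 26370369, and values below are counts scaled by TMM factors to the mean library (normalized counts). In all 5 tissues each of 9 connective mesenchyme genes was expressed, and their summed normalized counts were 328738 to 399028 in SM. The mean sum was lowest in SM, with 350875, against 422877 in VM, whose samples overlapped those of SM. It was 483650 in E13.5 MM, 637538 in FP and 1165301 in E16.5 MM. The summed counts of 10 factors of jaw mesenchyme such as Barx1 and Pitx1 were 11251 to 14971 in SM and at most 2754 elsewhere. Skeletal muscle genes summed to 21385 to 222305 in FP, against at most 31046 in the other tissues. No 2 libraries were identical.

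Of the 40 members, 32 had their highest mean in SM, 3 in VM, 1 in E13.5 MM, 2 in E16.5 MM and 2 in FP. In the heatmap of all samples, the SM columns stood apart for most rows, and the exceptions, such as Hand1, Isl1, Gap43, Scg2, Slc18a2 and Npy, came from different classes. Every sample of SM was above every one of the 20 other samples, with a mean over 50, for 27 of the 39 members tested, and the same held for 11.9% of all tested genes.

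**Figure D1:**
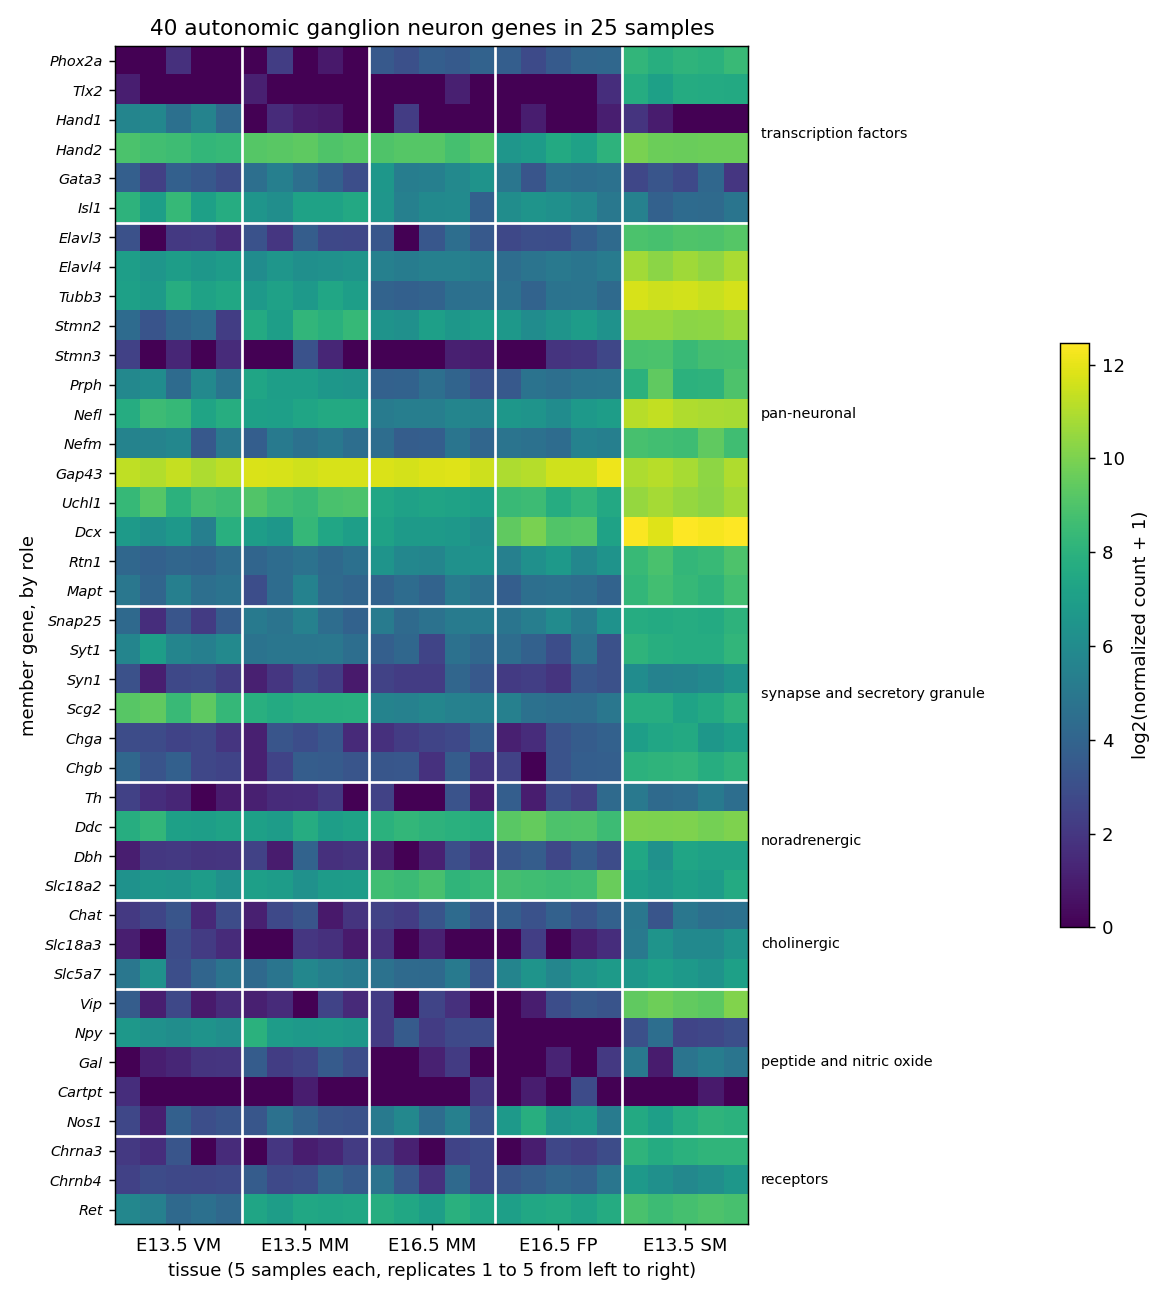
Heatmap of the 40 members (rows, grouped by role) in the 25 samples (columns, 5 per tissue), with color giving log2(normalized count + 1), not divided by gene length. The SM columns are the brightest for most rows, with Tubb3, Nefl and Dcx near the top of the scale, while Hand1, Isl1, Gap43, Scg2, Slc18a2 and Npy are brighter in other tissues.

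A gene was called where edgeR's quasi-likelihood test gave an adjusted p under 0.05, the log2 fold change reached 0.58 in either direction and the higher tissue had a mean above 50. In SM against E13.5 MM, 28 of 39 tested members were higher and 3 were lower, where 15.6% of all 17657 tested genes were higher and 14.5% lower. The median log2 fold change was 3.71 over the 39 members and -0.03 over all tested genes. Against VM, 29 were higher and 3 lower, beside 15.6% and 14.7% of all genes. Against E16.5 MM, 30 were higher and 4 lower, beside 16.6% and 18.5%. Against FP, 28 were higher and 3 lower, beside 19.3% and 20.2%. These 4 comparisons share the 5 samples of SM and are given side by side. Since the members were chosen with earlier results of these data known, their shares beside those of all genes are a description and no test of the set. Median differences of the members were 3.83, 3.79 and 3.90 on the log2 scale for VM, E16.5 MM and FP, the last being 3.80 with Npy, which had 0 counts in FP, at its lower bound. In bulk tissue, a higher level cannot be assigned to more cells of a type rather than more RNA per cell.

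Cartpt, a peptide of some autonomic and central neurons, was not tested because it held few counts in all 25 libraries together, with at most 6.21 normalized counts in any sample. The other 39 passed the expression filter, which a gene could pass on its level in 1 tissue alone.

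**Figure D2:**
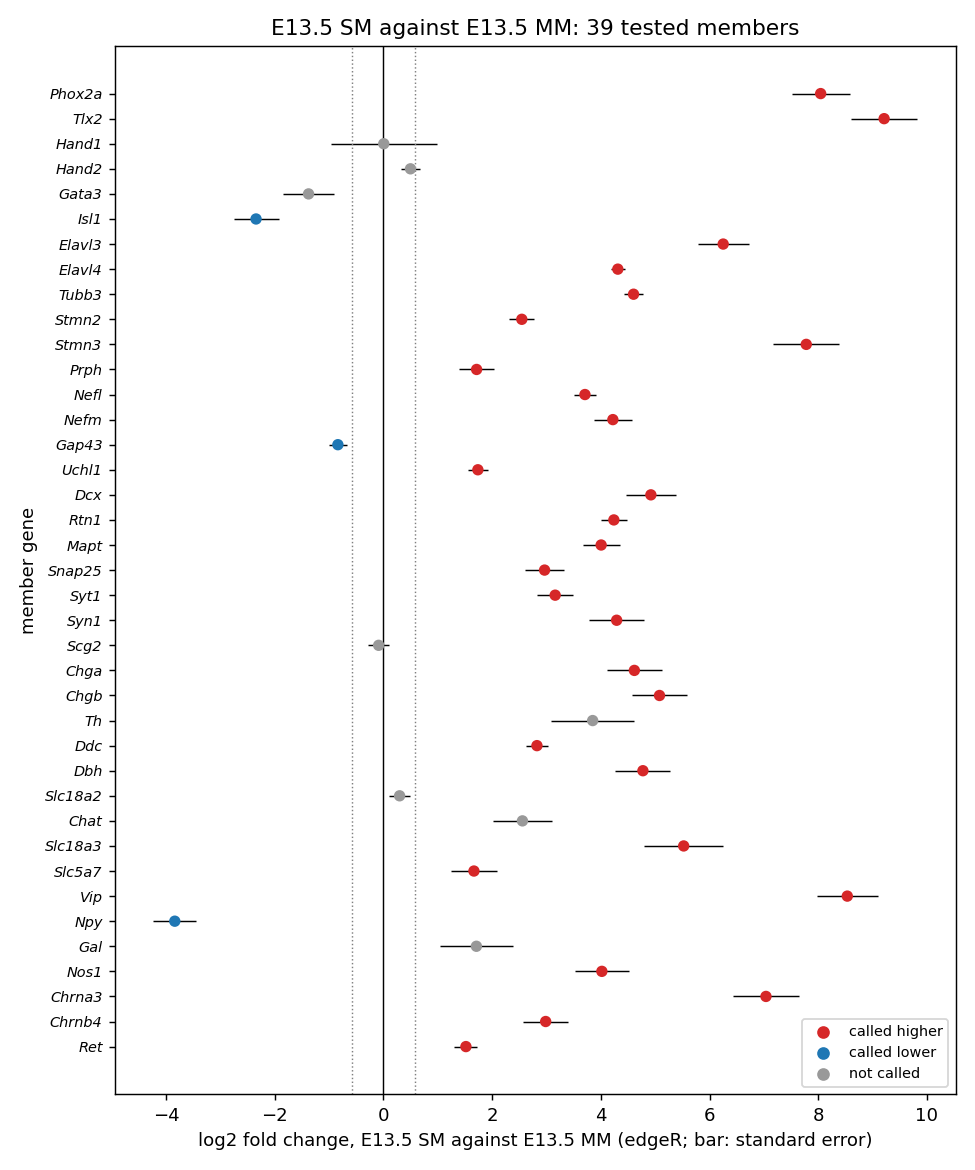
Log2 fold change of each of the 39 tested members in SM against E13.5 MM (points; bars are the standard error, dotted lines the 0.58 limit of a call). Red points right of the limit are the 28 called higher, blue points left of it are Isl1, Gap43 and Npy, and the fitted value of Tlx2 rests on 1 count in E13.5 MM and is no bound.

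Among the transcription factors, Phox2a and Tlx2 were at high levels in SM alone. Phox2a, a homeodomain factor of noradrenergic and visceral neurons encoded at chr7:101818313-101822726, had 298, 228, 274, 245 and 348 normalized counts in the 5 samples of SM. It had at most 3.82 in E13.5 MM and VM, and 5.94 to 16.9 in the samples of both E16.5 tissues. The lowest sample of SM was thus above every other sample. The log2 fold change was 8.04 ± 0.53 (SE) against E13.5 MM (edgeR adjusted p = 1.87e-12) and 4.47 ± 0.40 against FP (edgeR adjusted p = 3.69e-10). The gene overlaps Inppl1 on the other strand, and whether counting used strand is not stated.

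Tlx2, a homeobox factor of enteric and other crest-derived neurons encoded at chr6:83068324-83070293, had normalized counts of 189.6 to 206 in 4 samples and 134 in replicate 2 in SM. It reached at most 2.11 in any of the 20 other samples. E13.5 MM held 1 count of Tlx2 over its 5 libraries, which gave a ratio of 821 with a 95% Poisson interval of 176 to 38770, counting error only. Replicate 2 of SM was the lowest for both Phox2a and Tlx2, and still far above the other tissues.

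Hand2, a basic helix-loop-helix factor of noradrenergic neurons that limb and jaw mesenchyme also expresses, was abundant in every E13.5 tissue. It ranged from 777 to 979 in SM, from 528 to 658 in E13.5 MM, from 309 to 489 in VM and from 93.2 to 263 in FP. Samples of SM and E13.5 MM did not overlap, but the log2 fold change of 0.50 ± 0.17 was below the limit of a call (edgeR adjusted p = 0.0165). Hand2 was called higher in SM against VM, by 1.13 ± 0.18 (edgeR adjusted p = 5.79e-06), and against FP, by 2.39 ± 0.19 (edgeR adjusted p = 4.09e-11).

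Hand1, its paralog, had 49.4, 52.9, 23.5, 47.2 and 17.8 normalized counts in VM and at most 3.59 in any other sample. Isl1, a LIM homeodomain factor of sensory and autonomic neurons, was lowest in SM, with 43.9, 13.4, 19.2, 18.9 and 27.8, against 124 to 325 in VM and 70.7 to 183 in E13.5 MM. Its log2 fold change in SM against E13.5 MM was -2.34 ± 0.41 (edgeR adjusted p = 2.93e-05). Gata3, a zinc finger factor of sympathetic neurons, ranged from 38.3 to 97.4 in E16.5 MM and from 2.98 to 17.1 in SM, with a log2 fold change of -2.98 ± 0.47 between them (edgeR adjusted p = 5.45e-06). Against E16.5 MM, the calls of Hand2 (0.63 ± 0.18) and Isl1 (-1.12 ± 0.42) depended on single samples: Hand2 was at 0.57 without replicate 1 of SM and at 0.55 without replicate 4 of E16.5 MM, and Isl1 at -0.97 without replicate 2 of SM and at -0.82 without replicate 1 of E16.5 MM. Of the 6 factors, Phox2a, Tlx2 and Hand2 were therefore highest in SM, and Hand1, Isl1 and Gata3 were highest in skin or mammary tissue.

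A comparison list of 28 other autonomic genes was also chosen with earlier results known. Of these, 27 were tested, and in SM against E13.5 MM 14 were higher and 5 lower, beside 15.6% and 14.5% of all tested genes. Gata2, a zinc finger factor of sympathetic neurons and blood cells, was among the lower ones, with 29.7 to 59.1 normalized counts in SM and at least 213 in every other sample.

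Of the 13 pan-neuronal genes, 12 were called higher in SM against each of the 4 other tissues, and Gap43 was not. Of all tested genes, 15.6% to 19.3% were called higher in these comparisons. Tubb3, a neuronal beta-tubulin, had 3321, 2949, 3161, 2773 and 3278 normalized counts in SM, 102 to 163 in E13.5 MM and 13.2 to 26.9 in the E16.5 tissues. Its log2 fold change was 4.60 ± 0.17 against E13.5 MM (edgeR adjusted p = 4.03e-17). No sample outside SM exceeded 219 normalized counts of Tubb3, the highest being in VM.

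Dcx, a microtubule protein of young neurons and of muscle precursors, had 5319, 3725, 5526, 4982 and 5656 in SM. It had 675, 1008, 533, 587 and 145 in FP and at most 320 in the other 15 samples. The fat pad precursor was called higher than E16.5 MM for Dcx, by 2.47 ± 0.44 (edgeR adjusted p = 0.000133). The sample with the fewest Dcx counts in FP, replicate 5, also had the lowest summed count of 9 skeletal muscle genes, 21385, and the part of muscle in this difference was not tested.

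The RNA-binding proteins Elavl3 and Elavl4 mark neurons as they leave the cell cycle. Elavl3 had 452 to 585 normalized counts in SM and at most 21.9 in every other sample, with a log2 fold change of 6.25 ± 0.47 against E13.5 MM (edgeR adjusted p = 2.92e-11). Elavl4 had 1273 to 1899 against 66.6 to 91.7, a difference of 4.31 ± 0.13 (edgeR adjusted p = 8.14e-19). The samples of Elavl4 did not overlap between neighboring tissues in the order SM, VM, E13.5 MM, E16.5 MM and FP. The stathmins bind tubulin dimers in growing axons. Stmn3 had 352 to 482 in SM and at most 7.80 elsewhere. Stmn2 had 1264 to 1543 in SM, but also 126 to 331 in E13.5 MM against 3.75 to 20.1 in VM, a log2 difference of 4.13 ± 0.30 between these tissues (edgeR adjusted p = 3.51e-10).

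Of the 3 intermediate filament genes, Prph and Nefm were unevenly expressed over the salivary samples, and Nefl less so. Prph, the peripheral neuron filament, had 255, 691, 256, 262 and 508 normalized counts in SM and 90.9 to 160 in E13.5 MM. Nefl had 2223, 2540, 2020, 1902 and 1848 against 132 to 192. Nefm had 459, 412, 384, 681 and 401 against 12.4 to 34.4. The highest sample was replicate 2 for Prph and Nefl and replicate 4 for Nefm, and no sample of SM overlapped E13.5 MM for any of them. Nefl and Nefm overlap each other on opposite strands at chr14:68082590-68124846, so their counts are not fully separate if strand was not used. The log2 fold changes against E13.5 MM were 1.71 ± 0.32 for Prph (edgeR adjusted p = 5.56e-05), 3.71 ± 0.20 for Nefl (edgeR adjusted p = 5.81e-14) and 4.22 ± 0.34 for Nefm (edgeR adjusted p = 1.08e-10).

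Uchl1, a neuronal deubiquitinase, had 1262 to 1741 in SM and 126 to 580 in the other tissues. Rtn1, a reticulon of the endoplasmic reticulum, had 301 to 509 in SM and was the 1 pan-neuronal gene called higher in MM at E16.5 than at E13.5, with 49.2 to 87.1 against 15.8 to 25.3, a difference of 1.77 ± 0.24 (edgeR adjusted p = 1.06e-06). Mapt, the microtubule protein tau, had 280 to 419 in SM and at most 45.8 elsewhere.

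Gap43, a growth cone protein, was lower in SM than in 3 of the 4 other tissues. It had 1936, 2234, 1830, 1310 and 2007 normalized counts in SM and 3061 to 3504 in E13.5 MM, with no overlap and a log2 fold change of -0.84 ± 0.16 (edgeR adjusted p = 9.56e-05). In VM it had 1970 to 2612 and overlapped SM. The call against FP, -0.65 ± 0.16 (edgeR adjusted p = 0.000984), was lost without replicate 5 of FP, the highest at 4516, with a value of -0.45, and without replicate 4 of SM, with a value of -0.55.

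Of the 6 synapse and granule genes, 5 were called higher in SM than in E13.5 MM and in VM, and all 6 against both E16.5 tissues. The share of all tested genes called higher was 15.6% against E13.5 MM and against VM, 16.6% against E16.5 MM and 19.3% against FP. Chgb, a granin of dense core granules, had 254, 271, 297, 218 and 273 normalized counts in SM and at most 17.2 elsewhere, a log2 fold change of 5.08 ± 0.50 against E13.5 MM (edgeR adjusted p = 3.58e-09). Chga, its paralog, had 97.1 to 191 and at most 13.7 elsewhere, with a difference of 4.62 ± 0.50 (edgeR adjusted p = 1.81e-08). Snap25, a membrane fusion protein, had 193 to 268 in SM and 14.1 to 43.9 in E13.5 MM. Syt1, the calcium sensor of vesicle release, had 207 to 298 against 22.1 to 29.7. Syn1, a vesicle phosphoprotein, had 44.99 to 83.4 in SM and at most 16.2 elsewhere. It overlaps Timp1 and Araf, genes of other functions. With the mean taken over both tissues, Syn1 was under 50 and not called in any of the 4 comparisons with SM.

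Scg2, another granin, did not share this pattern. It had 593, 692, 347, 667 and 316 normalized counts in VM, 195 to 235 in E13.5 MM, 150 to 269 in SM and 20.7 to 51.6 in the E16.5 tissues. Salivary and mammary samples overlapped at E13.5 (log2 fold change -0.09 ± 0.19, edgeR adjusted p = 0.715). Scg2 was lower in E13.5 MM than in VM by 1.23 ± 0.20 in size (edgeR adjusted p = 4.47e-05) and fell in MM between E13.5 and E16.5, with a log2 fold change of -2.29 ± 0.22 (edgeR adjusted p = 4.1e-09).

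The 4 noradrenergic genes fell into different patterns. Dbh, the enzyme that makes noradrenaline from dopamine, encoded at chr2:27165233-27183200, had 174, 78.5, 161, 138 and 141 normalized counts in SM and at most 14.6 in every other sample. The lowest of these values, in replicate 2, was still above all 20 other samples. The log2 fold change was 4.77 ± 0.51 against E13.5 MM (edgeR adjusted p = 1.12e-08) and 3.95 ± 0.48 against FP (edgeR adjusted p = 7.67e-08).

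Th, the enzyme that sets the rate of catecholamine synthesis, had few counts. It had 31.4, 19.1, 21.2, 34.2 and 21.8 normalized counts in SM, 0.99 to 19.0 in FP and at most 8.09 in the other tissues. Each sample of SM was above every other sample, replicate 2 by a narrow margin. The difference from E13.5 MM was 3.85 ± 0.77 on the log2 scale (edgeR adjusted p = 0.000114), but the mean stayed under 50 in every tissue, so Th was not called in any comparison.

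Ddc, the decarboxylase of the same route and of serotonin synthesis, was abundant. It had 1052, 1037, 1079, 918 and 1078 in SM, 369 to 728 in FP, 214 to 305 in E16.5 MM and 118 to 300 at E13.5 in the skin tissues. No sample of SM overlapped FP, and the log2 fold change between them was 0.91 ± 0.20 (edgeR adjusted p = 0.000212). Ddc was also higher in FP than in E16.5 MM, by 1.11 ± 0.20 (edgeR adjusted p = 0.000103), and rose within MM between the stages, by 0.80 ± 0.21 (edgeR adjusted p = 0.00235).

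Slc18a2, the vesicular monoamine transporter, which neurons share with mast cells, was highest at E16.5. In E16.5 MM its normalized counts were 399, 360, 449, 288 and 330. The FP samples had 431, 393, 368, 405 and 783. SM, with 130, 105, 135, 118 and 194, overlapped E13.5 MM, with 76.99 to 129 (log2 fold change 0.30 ± 0.20, edgeR adjusted p = 0.203). Within MM it rose between E13.5 and E16.5 by 1.72 ± 0.20 (edgeR adjusted p = 1.35e-07). The summed normalized counts of 9 mast cell genes, among them Cpa3, Kit and Hdc, were 46634 to 105265 in the E16.5 tissues, 4227 to 7831 in E13.5 MM and VM, and 313 to 456 in SM, where Tpsb2 and Fcer1a were at 0. The sample of FP with the most Slc18a2 counts, replicate 5, also had the highest of these sums. The part of mast cells in the Slc18a2 levels was not tested.

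**Figure D3:**
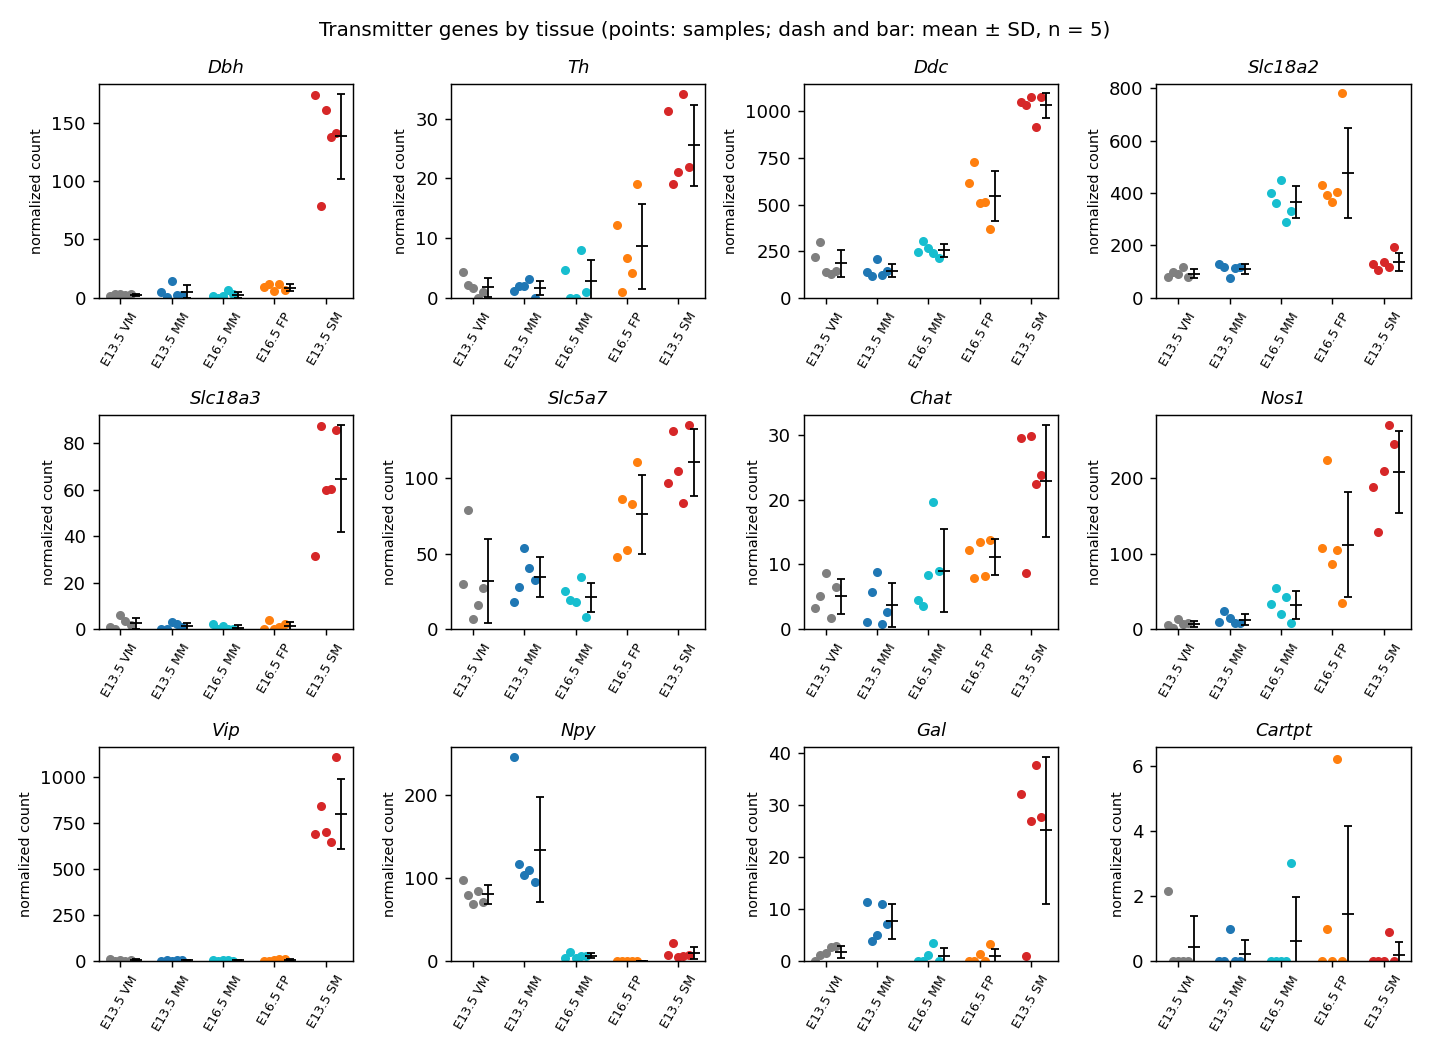
Normalized counts of the 12 transmitter genes in the 5 tissues (points are samples; dash and bar are the mean ± SD, n = 5; each panel has its own scale from 0). Dbh, Vip and Slc18a3 are high in SM alone, Slc18a2 is highest at E16.5, Npy is highest in E13.5 MM and VM, and Cartpt is near 0 throughout.

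All 3 cholinergic genes had their highest mean in SM, at modest counts. Slc18a3, the vesicular acetylcholine transporter, had 31.4, 87.1, 59.6, 60.2 and 85.4 normalized counts there and at most 6.27 in any other sample. The log2 fold change was 5.52 ± 0.73 against E13.5 MM (edgeR adjusted p = 4.04e-07). Slc18a3 lies inside Chat on the same strand, at chr14:32462438-32464850 within chr14:32408203-32465989, the arrangement known as the cholinergic locus, so the division of reads between both genes is uncertain. Slc18a3 was also not called in any of the 4 comparisons when the mean over both tissues had to exceed 50.

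Chat, choline acetyltransferase, had 29.6, 8.62, 29.8, 22.5 and 23.8 in SM, 7.93 to 13.7 in FP, 3.59 to 19.6 in E16.5 MM and at most 8.77 in the other tissues. Replicate 2 was again the lowest, and lay within the range of the E16.5 samples. The difference from E13.5 MM was 2.56 ± 0.54 on the log2 scale (edgeR adjusted p = 0.000244), and Chat was not called, since its mean was under 50 throughout.

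Slc5a7, the choline transporter, had 96.8, 131, 105, 83.6 and 135 normalized counts in SM and 18.1 to 53.6 in E13.5 MM, with no overlap (log2 fold change 1.67 ± 0.43, edgeR adjusted p = 0.00153). In FP it had 47.7, 86.2, 52.3, 82.8 and 111, which overlapped SM (0.53 ± 0.41, edgeR adjusted p = 0.248). FP was above E16.5 MM by 1.86 ± 0.45 (edgeR adjusted p = 0.00183). Slc18a3, by contrast, had at most 3.96 in FP.

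Of the peptide and nitric oxide genes, Vip, Nos1 and Gal had their highest mean in SM. Vip, the vasodilator peptide of parasympathetic neurons, encoded at chr10:5639218-5647617, had 692, 842, 702, 647 and 1110.1 normalized counts in SM. It had at most 11.8 in each of the 20 other samples. The log2 fold change was 8.53 ± 0.57 against E13.5 MM (edgeR adjusted p = 5.41e-12), 7.56 ± 0.52 against VM (edgeR adjusted p = 9.57e-12) and 7.21 ± 0.51 against FP (edgeR adjusted p = 1.21e-11).

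Npy, the peptide of sympathetic neurons, had the opposite pattern. It had 246, 117, 103, 110 and 95.3 normalized counts in E13.5 MM, 69.0 to 97.8 in VM, 4.81 to 22.0 in SM, 3.44 to 10.8 in E16.5 MM and 0 counts in all 5 libraries of FP. The log2 fold change was -3.84 ± 0.39 in SM against E13.5 MM (edgeR adjusted p = 2.69e-08) and -4.47 ± 0.42 in E16.5 MM against E13.5 MM (edgeR adjusted p = 1.94e-08). With 3 counts over the group as the limit that 0 counts allow, Npy was at least 14.0-fold higher in SM, and at least 8.92-fold higher in E16.5 MM, than in FP. Npy and Dbh, which sympathetic neurons use together, were thus highest in different tissues.

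Nos1, neuronal nitric oxide synthase, had 189, 129, 210, 270 and 246 in SM (209.6 in replicate 3 and 270.5 in replicate 4). In FP it had 108, 225, 87.2, 105 and 34.8, a range that overlapped SM through replicate 2, and in the E13.5 skin tissues at most 23.9. The log2 fold change was 4.02 ± 0.50 against E13.5 MM (edgeR adjusted p = 1.99e-07) and 0.90 ± 0.43 against FP (edgeR adjusted p = 0.0619). The comparison with FP became a call with the replicate number as a block (1.11, edgeR adjusted p = 0.0259), and also without replicate 2 of either tissue. Muscle fibers express Nos1 too, and replicate 5 of FP, the lowest for Nos1, had the lowest muscle sum. The part of muscle in the FP level was not tested.

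Gal, the peptide galanin, had 32.3, 0.96, 26.9, 37.7 and 27.8 normalized counts in SM and 3.82 to 11.3 in E13.5 MM. All but replicate 2 were above every other sample. The difference from E13.5 MM was 1.71 ± 0.67 on the log2 scale (edgeR adjusted p = 0.0291), with a mean under 50, and Gal was not called in any comparison.

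All 3 receptor genes were called higher in SM against each of the other tissues, where 15.6% to 19.3% of all tested genes were. Chrna3 and Chrnb4 encode subunits of the nicotinic receptor through which autonomic ganglia receive their input, and lie side by side on chromosome 9. Chrna3 had 271, 205, 252, 287 and 282 normalized counts in SM and at most 8.62 elsewhere (log2 fold change 7.04 ± 0.60 against E13.5 MM, edgeR adjusted p = 2.56e-10). Chrnb4 had 107, 74.7, 55.8, 71.0 and 94.3 and at most 28.5 elsewhere (2.99 ± 0.41, edgeR adjusted p = 9.08e-07). Chrnb4 lost its call in all 4 comparisons when the mean over both tissues had to exceed 50. Ret, the receptor for neurturin and other ligands of the GDNF family, had 374 to 501 in SM, 123 to 174 in E13.5 MM and 17.8 to 52.7 in VM. Its samples did not overlap between these 3 tissues, and the log2 fold changes were 1.52 ± 0.21 from E13.5 MM to SM (edgeR adjusted p = 8.89e-07) and 2.37 ± 0.24 from VM to E13.5 MM (edgeR adjusted p = 4.09e-08).

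**Figure D4:**
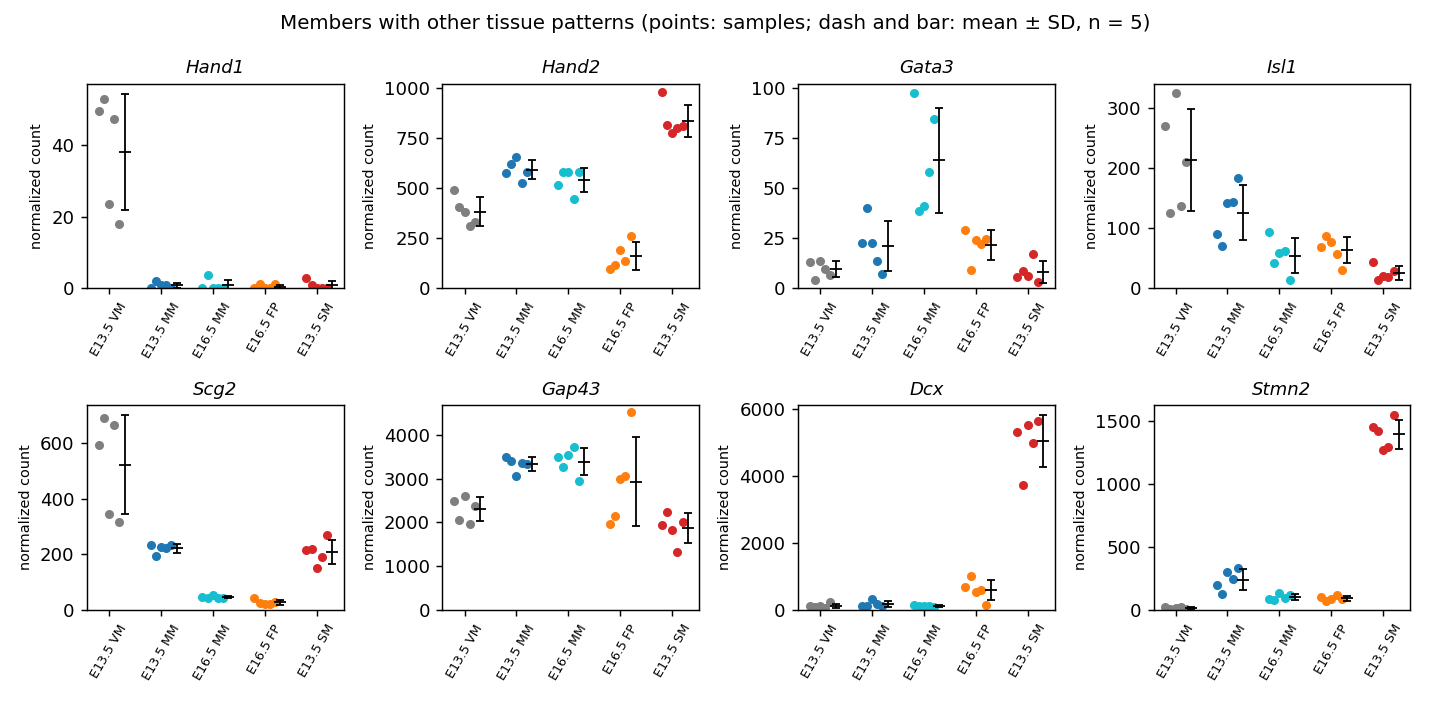
Normalized counts of 8 members in the 5 tissues (points are samples; dash and bar are the mean ± SD, n = 5; each panel has its own scale from 0). Hand1, Isl1 and Scg2 are highest in VM, Gata3 in E16.5 MM and Gap43 in E16.5 MM and E13.5 MM, while Dcx has samples at an intermediate level in FP and Stmn2 sets E13.5 MM apart from VM.

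To compare levels between genes, normalized counts were divided by exon length. In SM, Tubb3 was the most abundant member, with a level of 1658 ± 124 (SD, n = 5) normalized counts per kilobase, which placed it above 96.7% of tested genes. Gap43 followed with 1223 ± 225, Uchl1 with 926 ± 120 and Nefl with 623 ± 83.4. The transmitter genes spread widely: Vip had a level of 235 ± 55.5 per kilobase, Ddc 232 ± 14.9, Dbh 51.4 ± 13.6, Gal 31.9 ± 18.0, Slc18a3 26.8 ± 9.47, Slc18a2 26.1 ± 6.52, Slc5a7 19.5 ± 3.93, Nos1 18.7 ± 4.90, Npy 16.4 ± 12.7, Th 10.8 ± 2.85 and Chat 4.86 ± 1.83. Vip and Ddc did not differ beyond their spread, and neither did Dbh and Gal or the neighbors from Gal to Npy. The mean of Dbh was above that of Slc18a3 by more than the sum of their SDs, but the order was reversed in replicate 2. There Slc18a3, with the shorter exon length, had 87.1 normalized counts and Dbh 78.5.

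**Figure D5:**
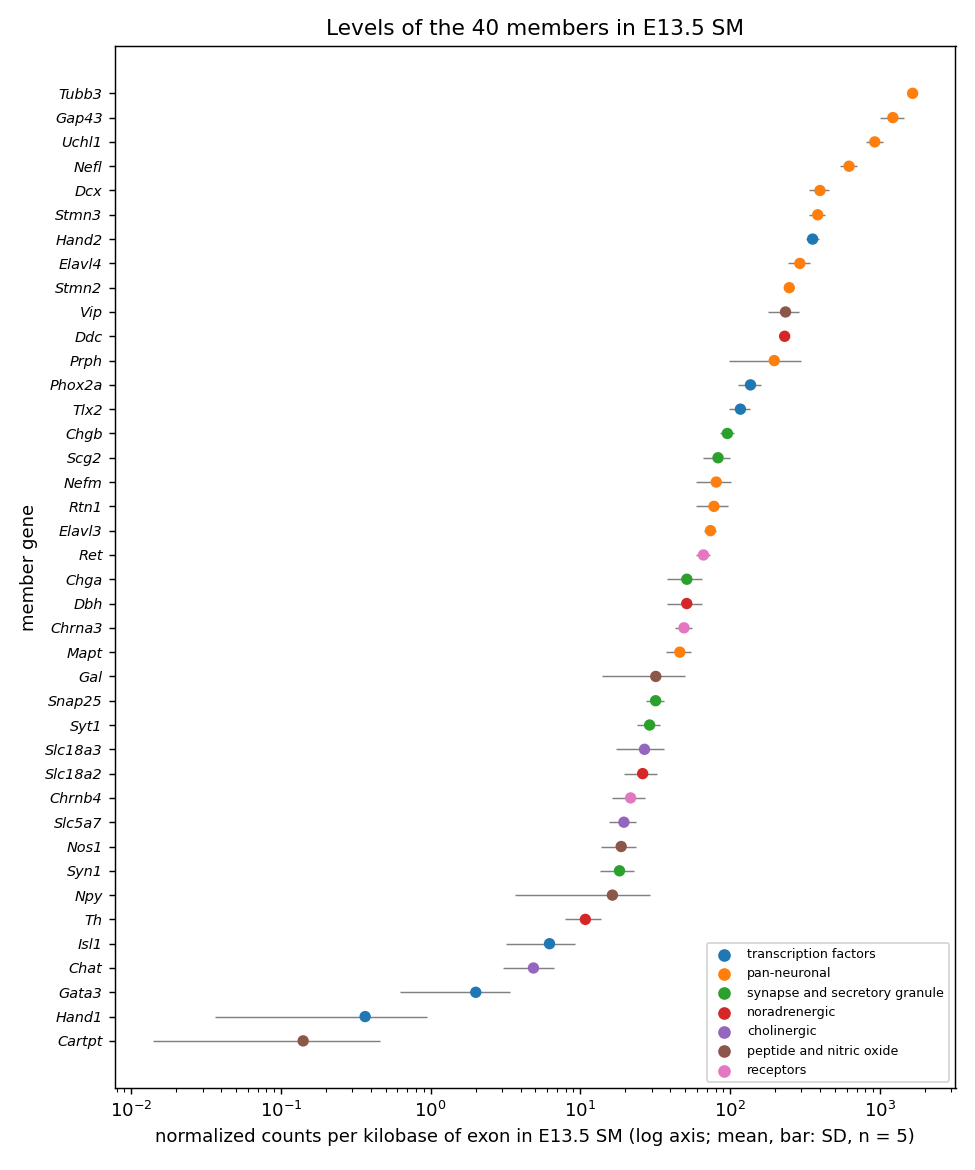
Mean level of each member in SM in normalized counts per kilobase of exon (log axis; bar is the SD over 5 samples, color the class). Tubb3, Gap43, Uchl1 and Nefl lead, Vip and Ddc are the most abundant transmitter genes, and Th, Chat and Cartpt lie near the lower end.

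Transmitter classes were also expressed as a percent of the 13 pan-neuronal genes, both summed per kilobase, as a description without a test. The cholinergic class was 0.820% ± 0.152 (SD, n = 5) in SM, 0.741% ± 0.180 in FP, 0.393% ± 0.216 in VM, 0.278% ± 0.141 in E13.5 MM and 0.242% ± 0.0917 in E16.5 MM. In FP its main member was Slc5a7, with a mean of 76.0 normalized counts, against 11.1 for Chat and 1.42 for Slc18a3. The means in SM were 110 for Slc5a7, 22.9 for Chat and 64.7 for Slc18a3. The noradrenergic class was highest in FP, with 10.4% ± 3.10, against 5.39% ± 0.628 in E16.5 MM and 5.16% ± 0.503 in SM. It was 3.09% ± 0.885 in VM and 2.08% ± 0.346 in E13.5 MM. In FP its main members were Ddc and Slc18a2, with means of 548 and 476 normalized counts, against 8.77 for Dbh and 8.61 for Th. With Th and Dbh alone, a choice made after the values were seen, SM was highest with 1.01% ± 0.283, FP had 0.317% ± 0.119 and the other tissues at most 0.0965%. The peptide and nitric oxide class was 9.04% ± 3.76 in E13.5 MM, 7.42% ± 1.30 in VM, 4.84% ± 0.678 in SM, 0.665% ± 0.329 in FP and 0.655% ± 0.256 in E16.5 MM, with Npy, a short gene, as the main member in the skin tissues and Vip in SM. Without division by length, SM was highest for this class, with 5.43%, and FP for the cholinergic class, with 2.09%. Gap43 was the most abundant pan-neuronal gene per kilobase in the 4 other tissues, so that the denominator there is largely 1 gene.

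Among the tissues of the skin and mammary region, fewer members passed the test. In E13.5 MM against VM, 4 of 39 were higher (Hand2, Stmn2, Prph and Ret) and 3 lower (Nefl, Syt1 and Scg2), where 3.79% of all tested genes were higher and 2.66% lower. Prph had 90.9 to 160 in E13.5 MM and 19.6 to 66.4 in VM (1.41 ± 0.33, edgeR adjusted p = 0.00376). The calls of Nefl (-0.66 ± 0.19, edgeR adjusted p = 0.0161) and Syt1 (-1.24 ± 0.33, edgeR adjusted p = 0.00895) were lost without replicate 2 of VM, with values of -0.48 and -0.88. That of Nefl was also lost without replicate 1 or 2 of E13.5 MM or replicate 3 of VM, and in a fit of these tissues alone, and that of Hand2 (0.63 ± 0.18) without replicate 4 of VM.

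Between E13.5 and E16.5, within MM, 4 of 39 members rose (Gata3, Rtn1, Ddc and Slc18a2) and 9 fell (Isl1, Elavl4, Tubb3, Stmn2, Prph, Nefl, Uchl1, Scg2 and Npy), beside 12.6% of all genes higher and 7.16% lower. The axonal genes of this group changed most in Prph, with 90.9 to 160 against 8.05 to 22.8 (-3.02 ± 0.38, edgeR adjusted p = 4.44e-07), and in Tubb3, with 102 to 163 against 13.2 to 24.2 (-2.81 ± 0.21, edgeR adjusted p = 5.71e-11). The samples of both stages did not overlap for either gene. The calls of Gata3 and Rtn1 were lost with the mean over both tissues. The median log2 fold change of the 39 members was -0.10, and that of all genes 0.01.

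In FP against E16.5 MM, 6 of 39 were higher (Nefl, Uchl1, Dcx, Ddc, Slc5a7 and Nos1) and 2 lower (Hand2 and Gata3), beside 6.78% of all genes higher and 7.34% lower. Hand2 had 93.2 to 263 in FP and 447 to 582 in E16.5 MM (-1.76 ± 0.19, edgeR adjusted p = 5.15e-08). Nos1 had 34.8 to 225 against 8.05 to 55.1 (1.82 ± 0.46, edgeR adjusted p = 0.00286), so its samples overlapped. The calls of Gata3 and Slc5a7 were lost with the mean over both tissues. All 9 skeletal muscle genes listed were also called higher in FP than in E16.5 MM.

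Markers of other cells were measured beside these genes. Of 11 sensory ganglion genes found, 3 (Neurog1, Tlx3 and Prdm12) were at 0 in every library of SM, and at most 7.18 normalized counts in any other sample. The summed normalized counts of the list were 92.6 to 112 in SM and 34.1 to 159 elsewhere. Pou4f1, a homeodomain factor of sensory neurons, had 0.96 to 5.38 in SM and up to 24.9 in FP. Neurog2, a proneural factor, had 24.3 to 48.1 in every sample of SM and at most 8.28 in any other sample. P2rx3, an ATP-gated channel of sensory neurons, had 29.7 to 45.7 in SM and at most 31.2 elsewhere. Neither was called, since their means were under 50. Motor and central neuron genes summed to 17.9 to 40.4 in SM and to 528 to 667 in E13.5 MM. Most of the E13.5 MM sum was Gad2, an enzyme of GABA synthesis, with 486 to 643, and 6 of the 8 genes had a mean under 10 there. Gad2 was called lower in SM against E13.5 MM, VM and E16.5 MM, but not against FP. Genes of Schwann cell precursors and glia, which line every peripheral nerve, were present in all tissues, with sums of 4060 to 5079 in SM, 4816 to 6279 in E13.5 MM and VM, 2855 to 3590 in E16.5 MM and 3364 to 4704 in FP. Of 11 such genes, 2 were higher and 4 lower in SM against E13.5 MM, where 15.6% and 14.5% of all genes were. Against VM 2 were higher and 4 lower, beside 15.6% and 14.7% of all genes. Against E16.5 MM 3 were higher and 3 lower, beside 16.6% and 18.5%, and against FP 2 and 2, beside 19.3% and 20.2%. Of 5 genes of Merkel and chromaffin cells, Atoh1 was at 0 in SM and Piezo2 made up most of the sum in every tissue. Genes of epithelium summed to 423 to 639 in SM, 85.6 to 329 in E13.5 MM and 283 to 2569 in E16.5 MM. In SM most of the sum was Epcam, an adhesion protein, with 386 to 575. It was the 1 gene of the 8 called higher in SM against each of the other tissues. Of the 8, 0 were called lower against E13.5 MM and VM, 5 against E16.5 MM and 3 against FP. Among all tested genes, 15.6% to 19.3% were higher and 14.5% to 20.2% lower in these comparisons. The median log2 fold change of the list against E13.5 MM was -0.62.

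The 5 salivary samples did not rise and fall as 1 block. Over the 28 members called higher against E13.5 MM, replicate 5 was the highest sample for 12 and the lowest for 1, whereas replicate 2 was the lowest for 11 and the highest for 5. Replicate 2 had the lowest values of Phox2a, Tlx2, Dbh, Dcx, Elavl3 and Elavl4, and among genes not called, of Th, Chat and Gal, but the highest of Prph, Nefl, Uchl1 and Slc18a3.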

How the data were processed

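RNA was sequenced from 25 pools of mesenchyme, 5 per tissue. From the reads, after quality checks (FastQC 0.11.8, MultiQC 1.9), trimming (Trimmomatic 0.39) and removal of ribosomal RNA (SortMeRNA), the authors made estimated counts per gene with Salmon 0.99.0 on mm10, and the deposited table holds them as whole numbers. The strand setting and annotation release are not given in the sources used here. Salmon divides reads between overlapping genes, so such counts are uncertain. Gene symbols, positions and exon lengths came from GENCODE M21 (GRCm38), in which 446 genes with 0.103% of the counts had no symbol.

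In R 4.3.3, edgeR 4.0.16 was used to scale counts by TMM and to fit all 25 samples by tissue, with robust quasi-likelihood F tests, no covariate and Benjamini-Hochberg adjustment over the 17657 genes kept by the expression filter. Totals per sample were 20678150 to 34448304 and the common dispersion was 0.0433. Standard errors were derived from the fold change and F, and are not independent of the test. The 40 members and all lists were chosen with earlier results of these data known. Every member is accounted for. Each sample's value is given for transmitter genes and the leading called members, and other members by range; of other lists, some of the defining or most abundant genes are named, and others are not reported here. The alternatives were DESeq2 1.42.0, its size factors, no filter, fits of the 2 tissues compared, a replicate block, each replicate left out, a mean count over both tissues, sums not divided by length and, added after the values were seen, Th and Dbh alone. Figures were drawn in Python 3.11.15 with matplotlib 3.10.9. Samples sharing a replicate number were checked for shared deviations (median r = -0.0141 over 50 pairs, 7 of them over 0.1), so the numbers were not taken as pairs.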

Additional observations from a re-analysis of the deposited data

Results flagged for a closer look

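Of 84 sets of 5 samples with a mean of at least 50, 9 held a sample set far from the other 4 by Dixon's criterion, which chance alone reaches in about 1 in 20 sets, or 4.2 of the 84. In SM, Tlx2 was low in replicate 2 (134 normalized counts against 190 to 206 in the others) and Ddc was low in replicate 4 (918.5 against 1037 to 1079). Also in SM, Hand2 was high in replicate 1 (979.4 against 777 to 814.6), Nefm in replicate 4 (681.2 against 384 to 459) and Snap25 in replicate 5 (268.1 against 193 to 212). In VM, Syt1 was high in replicate 2 (121.4 against 41.1 to 57.2). In E13.5 MM, Slc18a2 was low in replicate 3 (76.99 against 114 to 129) and Npy was high in replicate 1 (246.2 against 95.3 to 117). In FP, Slc18a2 was high in replicate 5 (782.5 against 368 to 431), the sample with the highest summed count of mast cell genes.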

How the results depend on the processing

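No called member changed direction under any alternative. The counts of called members stayed within 1.5 times the reported count except in 4 cases. With the mean taken over both tissues, 2 members were lower in SM against E16.5 MM, 2 were higher in E16.5 MM against E13.5 MM and 1 was lower in FP against E16.5 MM, since this rule leaves fewer genes past the count threshold. With 1 replicate left out, between 1 and 3 members were lower in E13.5 MM against VM. Leaving out a replicate lost a single member's call in 12 cases, where a call counts once for each replicate that removed it. These cases were Hand2 and Isl1 in SM against E16.5 MM, Gap43 in SM against FP, and Hand2, Nefl and Syt1 in E13.5 MM against VM. With the mean over both tissues 21 calls were lost, and 2 in fits of the tissues compared alone. Those 21 were Syn1, Slc18a3 and Chrnb4 in all 4 comparisons with SM, Npy against VM, Gata3 and Isl1 against E16.5 MM and Isl1 against FP in SM, Syt1 in E13.5 MM against VM, Gata3 and Rtn1 between the stages of MM, and Gata3 and Slc5a7 in FP against E16.5 MM. Slc18a2 became a call in SM against VM (0.56 as reported) without replicate 4 of VM, replicate 2 or replicate 4 of SM, with values of 0.61 to 0.66, and Gap43 in E13.5 MM against VM (0.53) without replicate 3 of VM, at 0.58.

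With the replicate number as a block, 28 members were higher and 3 lower in SM against E13.5 MM, and no reported call was lost, while Nos1 was gained against FP, making 29. For each sample, the best-correlated sample in each other tissue carried the same number in 20 of 100 tries. A random choice among the 5 samples of a tissue gives the same count on average.

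Without division by length, the noradrenergic class was 5.55% of the pan-neuronal sum in E13.5 MM, 8.17% in VM, 6.97% in SM, 25.4% in FP and 15.8% in E16.5 MM. The cholinergic class was 0.839%, 1.14%, 1.03%, 2.09% and 0.756% in the same order, so that FP was then above SM. The peptide and nitric oxide class was 3.29%, 2.71%, 5.43%, 3.01% and 1.03%, so that SM was highest, where it ranked below E13.5 MM and VM with division by length. With Th and Dbh alone the noradrenergic class was 0.0965%, 0.0851%, 1.01%, 0.317% and 0.0829% in the order given first. Chat, Th, Gal, Npy in SM and Cartpt rest on few counts, and their levels are correspondingly imprecise.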
